A study of Mus musculus with 2 samples.

Results

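Cell cycle genes were followed through the lymphocytes of inflamed mouse stomach. The 35 genes were taken as a given list and all 35 were found among the 31053 genes of both deposited count matrices. They fall into 3 roles: 17 mitotic genes, which act from late S phase through cell division, 12 S phase genes, which make DNA precursors or copy DNA, and 6 broadly expressed cytoskeleton and chromatin genes, which dividing cells hold in excess. The mice carried the TxA23 transgene, a T cell receptor that recognises a stomach self antigen and causes autoimmune gastritis, so both groups had the disease model. At an age of 3 months the mice received mini osmotic pumps, which ran for 4 weeks. They held PBS or 4 µg/mL recombinant IL-27, a cytokine that acts on T and other immune cells (800 ng in 200 µL). The IL-27 library pooled cells of 3 female mice and the PBS library cells of 1 male and 1 female. Live CD45+ cells, the haematopoietic cells flushed from the gastric mucosa, were sequenced by 10x 5′ single-cell RNA-seq.

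Each treatment is therefore 1 deposited library. By their barcode suffixes, IL-27 cells came from 3 wells of the 10x run and PBS cells from 2. Whether a well is a mouse is not stated. All 3074 UMIs of Y-linked genes in the PBS library lie in PBS well 2, so the PBS wells differ in sex and in mouse. Treatment cannot be told apart from well, and sex cannot be told apart from PBS well 2, the 1 well with Y-linked UMIs. After cells with under 200 genes or over 10% mitochondrial UMIs were left out, there were 20579 cells for IL-27, with a median of 3079 UMIs, and 11793 for PBS, with a median of 2958. Wells held between 20837859 and 28382468 UMIs, and any pair of wells shared 46 to 71 barcodes.

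Dividing lymphocytes copy their DNA in S phase, condense and separate the chromosomes in mitosis, and then degrade the mitotic cyclins and their partners through the anaphase-promoting complex. Resting T and B cells in blood and follicles carry little of this machinery. Germinal centre B cells, which multiply and mutate their antibody genes after meeting antigen, are known as one of the fastest dividing cell types of the body. Transcription of mitotic genes is repressed in resting cells by the DREAM complex, which binds the cell cycle homology region (CHR) of their promoters, often near CCAAT boxes bound by NF-Y, while S phase genes are known for E2F sites.

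Promoter sequence is shown for 3 of the members described below: Ube2c, the ubiquitin-conjugating enzyme of the anaphase-promoting complex, Mki67, the chromosome surface protein Ki-67, and Mcm6, a subunit of the replicative helicase. Each is 230 bases of the sense strand in RefSeq's GRCm38.p6, ending 21 bases before the annotated start. Capitals mark the CHR letters TTTGAA and the CCAAT box CCAAT in Ube2c and Mki67, and the CCAAT box with the E2F letters TTTCCCGC, TTTCGCGC, TTTGCCGC or TTTGGCGC in Mcm6, on either strand. The Ube2c stretch is chr2:164769679-164769908 (plus strand), the Mki67 stretch chr7:135716400-135716629 (minus strand) and the Mcm6 stretch chr1:128359726-128359955 (minus strand).
Ube2c: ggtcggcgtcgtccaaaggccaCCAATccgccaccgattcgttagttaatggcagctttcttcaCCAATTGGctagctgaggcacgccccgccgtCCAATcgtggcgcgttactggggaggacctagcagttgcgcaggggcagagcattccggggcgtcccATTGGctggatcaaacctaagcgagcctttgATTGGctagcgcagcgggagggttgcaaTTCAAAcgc
Mki67: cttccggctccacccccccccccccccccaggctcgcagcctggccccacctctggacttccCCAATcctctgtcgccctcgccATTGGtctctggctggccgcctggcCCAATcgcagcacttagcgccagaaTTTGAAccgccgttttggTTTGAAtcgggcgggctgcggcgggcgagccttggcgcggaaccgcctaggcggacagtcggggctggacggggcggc
Mcm6: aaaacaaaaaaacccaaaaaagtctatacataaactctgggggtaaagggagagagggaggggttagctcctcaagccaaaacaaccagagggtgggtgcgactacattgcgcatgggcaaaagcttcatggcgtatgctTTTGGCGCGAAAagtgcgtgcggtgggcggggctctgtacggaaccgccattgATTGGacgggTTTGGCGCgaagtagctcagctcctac
A CCAAT and its reverse complement overlap in Ube2c, and overlapping E2F matches stand side by side in Mcm6.

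Among the 28 members with a promoter entry, the CHR letters lay within 250 bases upstream in 6 of 14 mitotic genes (Mki67, Top2a, Cdk1, Ccnb2, Cdc20 and Ube2c), in 1 of 10 S phase genes and in 1 of 4 broad genes, against 16.3% of 27025 genes searched. CCAAT was present in 12 of 14 mitotic, 8 of 10 S phase and 3 of 4 broad promoters, against 34.5% of all. An E2F match was found in 3 of 10 S phase promoters (Mcm5, Mcm6 and Mcm7), 1 of 14 mitotic and 0 of 4 broad ones, against 1.91% of all. These matches describe letters and not bound sites. Ccna2, Aurkb, Tpx2, Mcm4, Gins2, Stmn1 and H2afx had no entry.

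Lymphocytes were gated on raw UMIs of marker genes: T cells on Cd3d, Cd3e and Cd3g, split by Cd4, Cd8a, Cd8b1 and Foxp3, B cells on a marker list that included Cd79a, Cd79b and Ms4a1, germinal centre B cells among B cells on at least 2 UMIs of a list that included S1pr2, Rgs13 and Mef2b, and NK cells on Ncr1, Klrb1c and Klre1. The gates allowed NK cells 1 UMI each of T and B markers, T cells 1 of B markers, and B cells 0 of T markers. The gates held 2662 conventional CD4, 355 regulatory T (Treg), 2290 CD8, 4365 other T, 18619 B, 157 germinal centre B and 480 NK cells. Neutrophils (89 cells), which no longer divide, served as background. A cell was placed in a mitotic class when it held UMIs of at least 3 of the 17 mitotic genes. This cut depends on depth, so the share was also taken after thinning every cell to 1000 UMIs. Intervals are exact 95% intervals, limits for a count of 0 are 3 counts of the total, and both cover counting error only.

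Germinal centre B cells held the largest mitotic class of the 7 gates. At full depth 68 of 157 cells (43.3%, 35.4 to 51.4%) belonged to it, against 6.20% of Treg (22 of 355), 4.77% of other T (208 of 4365), 2.66% of CD8, 2.52% of conventional CD4, 0.833% of NK (4 of 480) and 0.209% of B cells (39 of 18619). Thinned to 1000 UMIs, the shares were 24.4% in germinal centre B, 2.04% in other T, 2% in Treg (7 of 350), 1.07% in CD4, 0.796% in CD8, 0.664% in NK and 0.0388% in B cells. Between the depths Treg exchanged places with other T, and CD8 with CD4. None of 89 neutrophils was in the class, which allows a share of up to 3.37% (3 of 89) at their median of 1510 UMIs. B cells with Fcer2a, a marker of resting follicular B cells, stood at 0.170% (20 of 11794), near the share of the whole B gate.

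**Figure D1:**
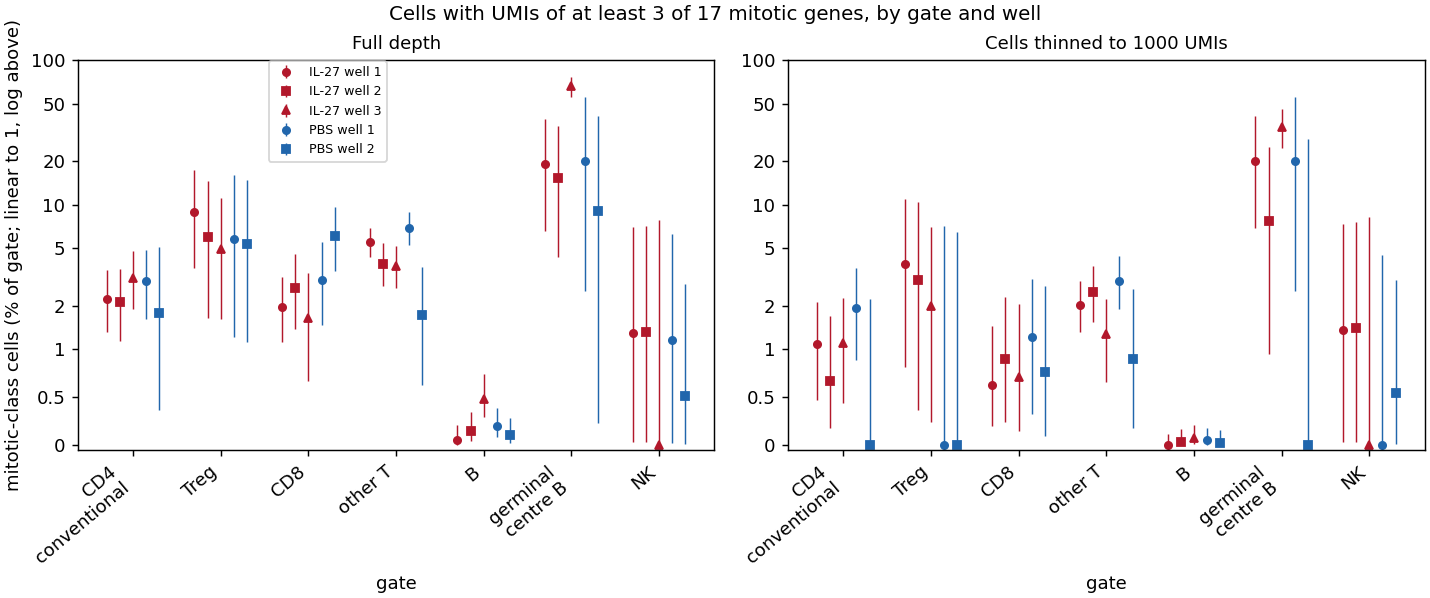
Percent of cells in the mitotic class by gate, at full depth and after thinning to 1000 UMIs, with 1 point per well coloured by treatment. At full depth germinal centre B cells sit above the other gates, from 9.09% to 66.7%, and B cells reach at most 0.479% in a well, while after thinning the germinal centre B cells of PBS well 2 are at 0 of 11.

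The wells differed within a treatment as well as between treatments. In germinal centre B cells the full-depth shares were 19.2%, 15.4% and 66.7% with IL-27 and 20% and 9.09% with PBS, from 26, 26 and 84 against 10 and 11 cells. IL-27 well 3 therefore supplied most of the germinal centre cells and most of their mitotic class. Treg shares were 8.86%, 5.97% and 4.95% against 5.77% and 5.36%, and other T shares 5.53%, 3.91% and 3.77% against 6.92% and 1.71%. In both T gates the treatments overlapped. Thinned, the germinal centre B shares were 20%, 7.69% and 34.5% with IL-27 and 20% and 0 with PBS.

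Most of the mitotic class among other T cells carried UMIs of both Cd4 and a CD8 chain: 182 of the 208. Such cells numbered 1204, were in the class at 15.1%, and had a median of 6460 UMIs. Of them 82.4% held Cd8b1 without Cd8a. T cells with neither Cd4 nor a CD8 chain were in the class at 0.823% (26 of 3161) and had a median of 3048 UMIs. Both shares are at full depth, and the part of depth in their difference was not tested. When Cd8a alone marked a CD8 cell, an alternative chosen after the data were seen, the class made up 5.40% of CD4, 8.43% of Treg, 2.39% of CD8 and 2.23% of other T cells. The ranking of the T gates thus depends on whether Cd8b1 is read as a CD8 marker.

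Mki67 illustrates the levels across gates. Its summed level was 299 UMIs per 1000000 UMIs of the gate (CPM) in germinal centre B, 60.9 in Treg, 51.6 in other T, 30.2 in NK, 26.4 in CD4, 15.5 in CD8 and 2.51 in B cells. A Mki67 UMI was seen in 47.1% of germinal centre B cells and 0.424% of B cells, or in 16.7% and 0.116% after thinning. No neutrophil had one. The germinal centre level was 119 times that of the remaining B cells. Without IL-27 well 3 it was 173 CPM, and the ratio 79.1.

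The other mitotic genes had the same highest gate. Ube2c stood at 182 CPM in germinal centre B, 84.2 in Treg and 2.14 in B cells. Top2a, the topoisomerase that untangles sister chromatids, stood at 239, 56.9 and 3.37 CPM. Birc5, a subunit of the chromosomal passenger complex, stood at 213, 66.6 and 1.81 CPM, and its germinal centre level was 137 without IL-27 well 3. Ccna2, the cyclin of S phase and G2, had the widest ratio of germinal centre B to B cells among the 35 genes, 276.

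Cdk1, the kinase that drives entry into mitosis, was measured at 99.1 CPM in germinal centre B cells and between 4.01 and 25.0 in the T gates. Cenpa, the centromere histone, and Cks2, a small CDK subunit, were less restricted: B cells held 32.8 CPM of Cenpa and 20.3 of Cks2. Cks2 reached 151 CPM in neutrophils, where 20.2% of cells had a UMI, so a Cks2 UMI alone does not mark this class. In all 17 mitotic genes the highest of the 7 gates was germinal centre B, but without IL-27 well 3 Cenpa was higher in Treg (150.3 CPM) than in germinal centre B (102 CPM).

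S phase genes had the same highest gate. Rrm2, the regulated subunit of ribonucleotide reductase, stood at 226 CPM in germinal centre B, 47.9 in other T, 45.5 in Treg and 1.81 in B cells. Pcna, the sliding clamp of DNA polymerases, was present in every gate, at 168 CPM in germinal centre B and 39.1 in B cells, a ratio of 4.29. Mcm6 stood at 183 CPM in germinal centre B, 33.3 to 53.5 in the T gates and 11.2 in B cells. Tyms, which makes thymidylate, stood at 57.3 CPM in germinal centre B and 1.82 in B cells. All 12 S phase genes were highest in germinal centre B cells. Without IL-27 well 3 these germinal centre levels were 142 CPM for Rrm2, 94.9 for Pcna, with a ratio to B cells of 2.46, and 119 for Mcm6.

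Broad members were expressed well beyond the dividing cells. Hmgb2, a DNA-bending chromatin protein, ranged from 97.7 CPM in B to 1786 in germinal centre B cells, and 67.4% of neutrophils held a UMI of it. H2afz, the histone variant H2A.Z, was the 1 member of 35 whose highest gate was not germinal centre B: it stood at 1934 CPM in NK, 1899 in germinal centre B and 1832 in Treg cells. Stmn1, which destabilises microtubules, ranged from 11.9 CPM in B to 446 in germinal centre B cells. Tubb5, a beta tubulin, had the narrowest ratio of germinal centre B to B cells, 3.22. Without IL-27 well 3 the germinal centre levels of Hmgb2 and Stmn1 were 1051 and 223 CPM, and in all 15 of 35 members moved there by over 1.5 times. Germinal centre B was the highest gate for 34 of 35 members, and for 33 without that well. B was the lowest gate for 29, NK for 5 and CD8 for 1. In neutrophils 19 of the 35 members had no UMI.

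**Figure D2:**
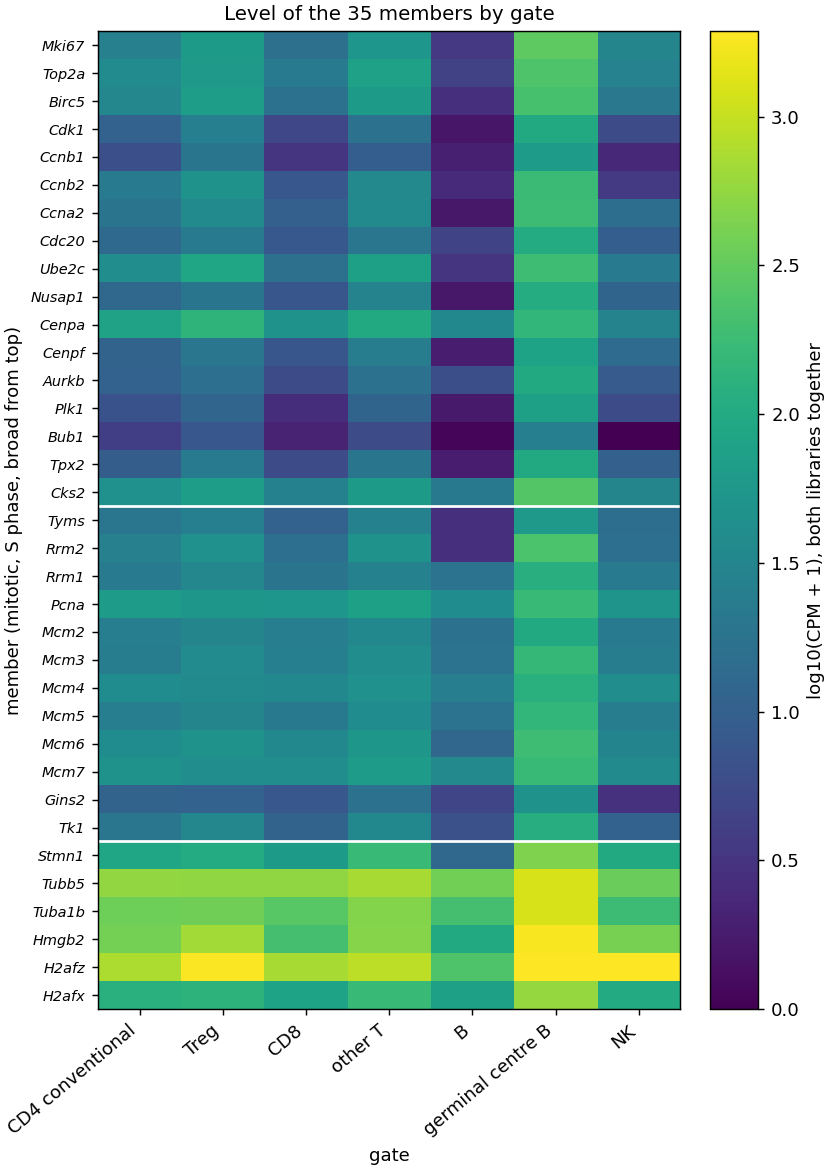
Level of each of the 35 genes in the 7 gates, as log10(CPM + 1) over both libraries, with mitotic, S phase and broad genes from top to bottom. The germinal centre B column is the brightest for 34 genes, and the B column the darkest for 29.

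The summed level of the 17 mitotic genes was 2441 CPM in germinal centre B (93.5 to 2786 over wells), 714 in Treg (199.8 to 1191), 634 in other T (286 to 868), 371 in CD4, 235 in NK (66.5 to 703), 195 in CD8 (149 to 363) and 78.6 in B cells (62.9 to 97.9). Every well of the 4 T gates lay above every well of the B gate. Germinal centre B and NK wells overlapped with both, and the neighbouring gates Treg and other T overlapped with each other. Germinal centre B cells made up 0.543% of gated cells and held 13.2% of gated mitotic UMIs. Other T cells held 43.1% of these UMIs and B cells, 64.4% of all gated cells, held 15.1%.

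Mitotic UMIs were concentrated in few cells. Among 157 germinal centre B cells, 51 held at least 7 of the 17 mitotic genes. In Treg the 3 cells with most mitotic UMIs held 52.1% of them with IL-27 and 58.9% with PBS. In NK these shares were 85.5% and 62.1%, and in CD4 17.95% and 56.9%. Counting intervals on Treg, NK and germinal centre B sums are for this reason too narrow.

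S phase and broad genes, which the class did not use, were compared between class cells and the other cells of the same gates, as a description of the same cells. Over the T gates (358 class cells), 12 of 12 S phase and 6 of 6 broad genes were at least 1.5-fold higher in the class, where 12.1% of 12504 genes were higher. Over the B gates (107 class cells), 12 of 12 and 6 of 6 were higher, where 21.0% of 12262 genes were. Of all genes, 28.4% were lower in the T class and 36.5% in the B class. The widest S phase ratio was that of Rrm2, 111 in T (90.9 to 136) and 195 in B gates. Tk1, the salvage thymidine kinase, had ratios of 42.3 and 25.5, and Tyms 16.99 and 43.7. Pcna was 3.73 and 4.84 times higher. Stmn1 had the widest ratio of the broad genes, 18.9 in T and 43.0 in B gates, and Hmgb2 followed with 13.8 and 21.9.

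S phase genes were often found in the same cell as mitotic genes. UMIs of at least 3 of the 12 S phase genes were held by 82.4% of the class in germinal centre B, 77.4% in other T, 71.6% in CD4, 68.2% in Treg, 67.2% in CD8 and 51.3% in B cells. Class cells were deeper than their gates, and the part of depth in these co-detections was not tested. All 18 S phase and broad genes remained at least 1.5-fold higher in both when the class required 5 mitotic genes and when cells with a Scrublet doublet score over 0.25 were left out.

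**Figure D3:**
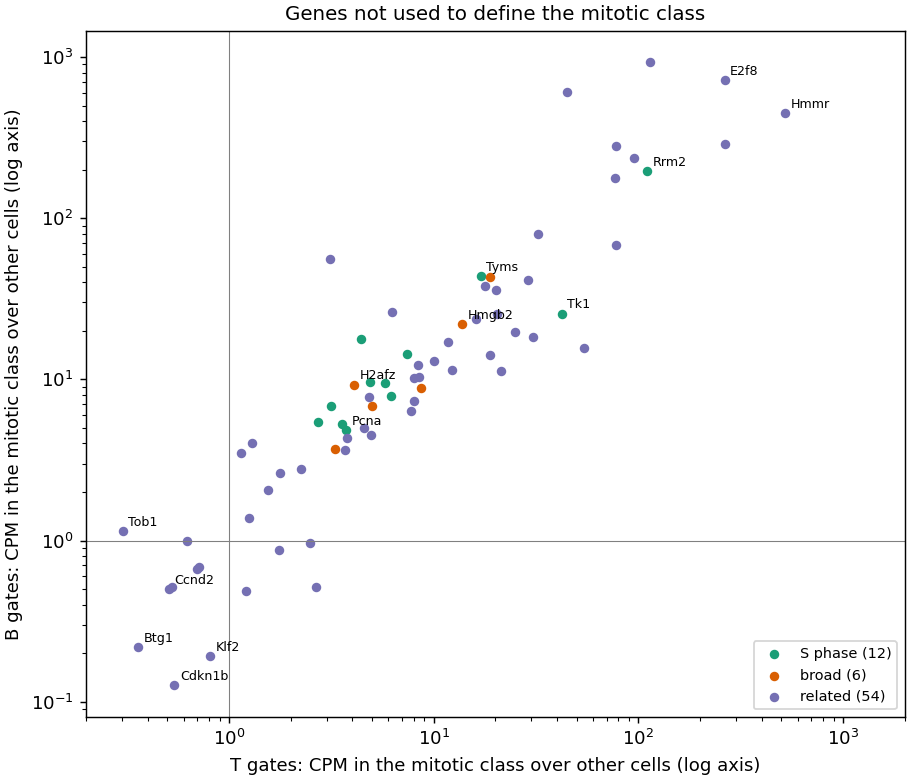
CPM in the mitotic class over other cells for S phase, broad and related cell cycle genes, with T gates on the x axis and B gates on the y axis, both log axes with grey lines at 1. S phase and broad genes all lie above 1.5 on both axes, and Rrm2 lies furthest out among them at 111 and 195. Ccnd1, with 0 UMIs in the B class, is not drawn.

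Of 55 related cell cycle genes, 41 were at least 1.5-fold higher in the T class and 6 lower. The widest ratios were those of Hmmr (523), which binds spindle microtubules, Bub1b (264), a spindle checkpoint kinase, and E2f8 (264), an E2F repressor, then E2f7 (114), Kif11 (95.02), the bipolar spindle motor, and Clspn (77.6), which activates the replication checkpoint. The 6 lower genes included antiproliferative and G1 genes: Tob1 (0.302), Btg1 (0.360), Btg2 (0.525) and the CDK inhibitor Cdkn1b (0.542), but also the D-type cyclin Ccnd2 (0.508) and Myc (0.622), which drive G1. In the B class 40 were higher and 9 lower. Among the lower ones Cdkn1b stood at 0.126, Klf2, a quiescence factor, at 0.192, Btg1 at 0.217 and the pocket protein gene Rb1 at 0.488. The D-type cyclins Ccnd1 (0, 0 to 1.63) and Ccnd2 (0.498) were lower too.

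Outside the list, the genes whose level most resembled the summed mitotic level over 33 gate-wells were Cks1b, Cdca8 and H2afv (Pearson r of log2(CPM + 1) 0.94 for each), Cenpe (0.93), Kif22 and Cenpm (0.92), Cdca3 (0.91) and Cenpw (0.90). These points share wells, depth and gates. For Cks1b, the sister of Cks2, r was 0.92 over the 30 gate-wells outside germinal centre B. Btg1 (-0.63) and Klf2 (-0.60) lay at the other end, but over the 30 gate-wells outside germinal centre B their r was -0.29 and -0.36.

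Between the treatments, the wells' thinned mitotic-class shares overlapped in every gate but Treg. In germinal centre B cells the ratio of IL-27 to PBS was 2.8 (0.721 to 24.0), in other T 0.811 (0.506 to 1.33), in CD8 0.709 (0.246 to 2.30), in CD4 0.672 (0.290 to 1.69), in B 0.945 (0.160 to 6.45) and in NK 2.81 (0.146 to 166). All 6 intervals include 1, and the ratio of other T was 2.14 without PBS well 1. In Treg the thinned class held 7 of 245 cells with IL-27 and 0 of 105 with PBS, which allows a share of up to 2.86% (3 of 105). Thinned Treg shares were 3.90%, 2.99% and 1.98% with IL-27 and 0 in both PBS wells, so the wells did not overlap. The two-sided exact permutation test over wells gave p = 0.1 for Treg, the smallest p that 10 splits allow, and an adjusted p of 0.7 over the 7 gates. At full depth the Treg ratio was 1.17 (0.433 to 3.64). With Cd8a alone marking a CD8 cell, thinned Treg shares were 4.08%, 3.90% and 1.79% with IL-27 against 3.13% and 0, so those wells overlapped. Counting intervals of the full-depth ratio left out 1 in CD8 (0.475, 0.278 to 0.821) and in germinal centre B cells (3.35, 1.10 to 16.6). The CD8 wells stood at 1.96%, 2.65% and 1.65% with IL-27 against 3.02% and 6.02%, so PBS well 2 was the high one.

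In Treg the summed level of all 17 mitotic genes was 1146, 1191 and 507 CPM with IL-27 and 199.8 and 374 with PBS, a ratio of 3.13 (2.65 to 3.71). All IL-27 wells were above both PBS wells. With at least 20 UMIs over both libraries, 17 of 32 members were 1.5-fold higher, where 9.41% of all genes tested were, and 2 were lower, where 9.62% were. The higher ones were the 15 mitotic genes that passed this minimum, with Tubb5 (1.58) and Tuba1b (1.59), and none of the 11 S phase genes. Of the 15, 12 had under 20 UMIs in the PBS library and passed through the IL-27 library, where they were high, so their count is a description and supports nothing. The 3 with 20 UMIs in the PBS library by itself were Mki67, Cenpa and Cks2, with ratios of 1.80, 1.70 and 1.97. Plk1, Bub1 and Gins2 had too few UMIs. The lower ones were Pcna (0.654) and Mcm2 (0.658), and they numbered 0 without PBS well 1 and 4 without PBS well 2. In 12 of the members at 1.5-fold all IL-27 wells exceeded both PBS wells, where 5.24% of all genes did so, and 0 were below both, where 5.49% were. The 12 were Top2a, Birc5, Cdk1, Ccna2, Ube2c, Nusap1, Cenpf, Aurkb, Tpx2, Cks2, Tubb5 and Tuba1b. Of these, Cks2, Tubb5 and Tuba1b had 20 UMIs in the PBS library by itself. The others passed through the IL-27 library, so this count too is a description and supports nothing. For Mki67 and Cenpa the wells overlapped.

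Ube2c was measured in Treg at 121, 201 and 58.0 CPM with IL-27 and at 3.77 and 3.40 CPM in the PBS wells. The groups did not overlap. It was the 1 member to pass the edgeR quasi-likelihood test over wells in any gate, with a log2 fold change of 5.01 and an adjusted p of 0.0205, where 0.172% of 5247 genes passed; DESeq2, which called 0.0762% of genes, gave 5.17 and an adjusted p of 0.0102. Those levels rest on 146 UMIs in 15 IL-27 cells, 53 of them in 1 cell, and on 2 UMIs in 2 PBS cells, and the ratio of the sums was 34.1 (9.27 to 284). The call was lost without IL-27 well 1, IL-27 well 2 or PBS well 2, and 2 members were called without IL-27 well 3 or PBS well 1.

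Birc5 stood at 129, 91.2 and 58.0 CPM in the IL-27 Treg wells and at 11.3 and 23.8 in the PBS wells. The wells did not overlap, and edgeR gave a log2 fold change of 2.35 with an adjusted p of 0.107. Ccna2 stood at 66.1, 62.5 and 25.8 against 3.77 and 13.6 CPM, and Top2a at 63.2, 115 and 47.3 against 30.2 and 13.6. For Mki67 (118, 86.0 and 23.6 against 33.9 and 44.2 CPM) the wells overlapped, IL-27 well 3 lying under both PBS wells. In all, 9 of 29 members tested had an unadjusted edgeR p under 0.05, each of them higher with IL-27, where 4.88% of genes had one. Of these 9, only Cks2, Tubb5 and Tuba1b had 20 UMIs in the PBS library by itself. This count too is a description and supports nothing.

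The S phase genes of the same Treg cells overlapped between the treatments. Their summed level was 477, 495 and 299 CPM with IL-27 and 573 and 319.7 in the PBS wells, a ratio of 0.940 (0.805 to 1.10). Rrm2 stood at 60.3, 54.7 and 27.9 CPM against 90.5 and 3.40, and Pcna at 66.1, 26.1 and 49.4 against 94.2 and 51.0. Both overlapped between the treatments. Summed macrophage markers in the Treg gate were 2.87, 5.21 and 1173 CPM with IL-27 and 15.1 and 1092 in the PBS wells, and summed Treg markers 1069, 1733 and 1435 against 1131 and 1769. Their part in the Treg values was not tested.

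**Figure D4:**
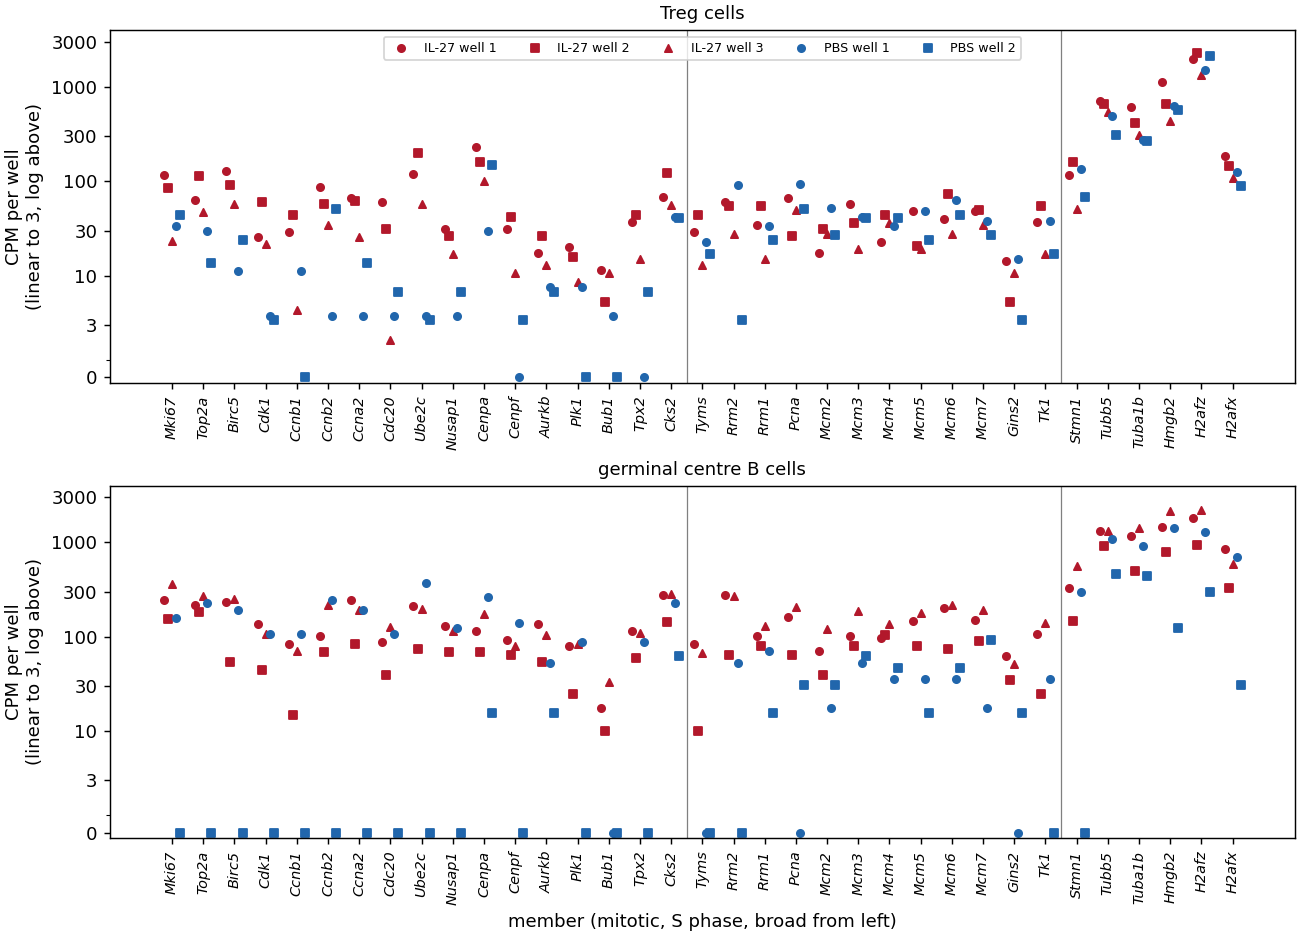
Level of each member in CPM (linear to 3, log above) in Treg and germinal centre B cells, with 1 point per well coloured by treatment and grey lines between mitotic, S phase and broad genes. In Treg the IL-27 points separate from PBS at mitotic genes such as Ube2c, and in germinal centre B cells at S phase genes such as Mcm5.

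In germinal centre B cells the wells stood apart mainly in S phase genes. Members were at least 1.5-fold higher with IL-27 in 31 of 35, where 32.8% of all genes tested were, and 0 were lower, where 16.3% were. Ccnb1, Ube2c, Cenpa and Cenpf were the 4 under 1.5-fold. Bub1 and Tyms had 0 UMIs in the PBS wells, which allows up to 24.8 CPM (3 counts over both wells). All 35 members had 20 UMIs over both libraries, but 29 had under 20 in the PBS library, and the count of 31 is a description. At 1.5-fold, in 12 members the IL-27 wells were all higher, where this held for 15.4% of genes, and in 0 all lower, where it held for 6.71%. The 12 were Aurkb, Bub1 and 10 S phase genes (Tyms, Rrm2, Rrm1, Pcna, Mcm2, Mcm3, Mcm4, Mcm5, Mcm6 and Gins2). Of all 12 S phase genes, 0 had 20 UMIs in the PBS library by itself. They passed through the IL-27 library, where they were high, so this count too is a description and supports nothing. Summed S phase genes stood at 1560, 743 and 1898 CPM against 353 and 358.5, a ratio of 4.75 (3.51 to 6.58).

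Mcm5, a helicase subunit, had 146, 79.3 and 177 CPM with IL-27 and 35.3 and 15.6 in the PBS wells, and Rrm2 had 275, 64.4 and 270 against 52.9 and 0. Mki67 stood at 244, 154 and 364 CPM against 159 and 0, and Ube2c at 213, 74.3 and 197 against 371 and 0, so these 2 mitotic genes overlapped. The 2 PBS wells held 21 germinal centre B cells in all, and 95.6% of their mitotic UMIs lay in 3 cells. Under edgeR 0 of 34 members passed, where 0% of 3233 genes did. Of the 34, 7 had an unadjusted p under 0.05, each of them higher with IL-27, where 6.56% of genes had one. They were Aurkb and the S phase genes Tyms, Rrm2, Pcna, Mcm4, Mcm5 and Mcm6. Since 0 S phase genes had 20 UMIs in the PBS library by itself, this count too is a description and supports nothing. DESeq2 also called 0 members. Summed germinal centre markers were 374 CPM in PBS well 2 against 1294 to 1941 in the other wells, and summed plasma cell markers 62.4 against 1182 to 7082; their part was not tested. Without PBS well 2 the count of higher members was 17 and that of lower members 4.

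In CD8 cells 2 of 34 members were higher (Cdc20 1.51 and Ube2c 1.95), where 5.44% of genes were, and 6 were lower, where 16% were. The lower ones were Mki67 (0.535), Ccnb1, Cenpa (0.440), Tyms (0.466), Rrm2 (0.641) and Tk1 (0.568). The median log2 ratio of all genes in this gate was -0.15. Cenpa stood at 37.0, 36.4 and 28.5 CPM with IL-27 and at 40.005 and 136 in the PBS wells, and Mki67 at 13.5, 16.4 and 7.71 against 11.001 and 42.6. The high values are those of PBS well 2, whose CD8 gate also held 1286 CPM of summed NK markers against 169.6 to 270 in the other wells. Over all wells the list's members in the CD8 gate were Eomes at 153 CPM, Prf1 at 109 and Gzma at 37.2. Its other members, which define the NK gate, were Klre1 at 20.9, Ncr1 at 2.16 and Klrb1c at 0.231. The part of those NK markers in the CD8 values was not tested. Among those at 1.5-fold the wells did not overlap for Cdc20, higher with IL-27 (3.65% of genes), and for Cenpa, Tyms and Rrm2, lower (5.92% of genes). Under 1.5-fold they also did not overlap for Tubb5 and Tuba1b, higher, and for Rrm1, Mcm4, Mcm6 and Gins2, lower. Without PBS well 2 the counts were 4 higher and 2 lower, without PBS well 1 they were 1 and 16, and without IL-27 well 2 the higher count was 1.

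In conventional CD4 cells 0 of 35 members were higher, where 5.36% of genes were, and 5 were lower, where 5.32% were. These were Ccnb1 (0.614) and Ccnb2 (0.618), the B-type cyclins, Aurkb (0.580), the passenger kinase, Plk1 (0.645), the polo kinase, and Tpx2 (0.553), a spindle assembly factor. The PBS wells stood far apart: Ube2c was 46.6, 15.2 and 45.2 CPM with IL-27 and 67.5 and 0 with PBS, and Mki67 28.2, 21.2 and 28.9 against 34.9 and 2.74. At 1.5-fold no member had wells apart in either direction, where 3.45% of genes did on the higher and 2.46% on the lower side. Mcm3 had wells apart under that fold, at 19.9, 24.9 and 24.3 CPM with IL-27 and 27.3 and 28.8 with PBS. Without PBS well 1, 21 members were higher and 0 lower, without PBS well 2, 9 were lower, and without IL-27 well 2, 1 was. Summed macrophage markers in this gate reached 359 and 834 CPM in the PBS wells against 15.9 to 85.1 with IL-27, and their part was not tested.

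Other T cells had 0 of 35 members higher, where 3.55% of genes were, and 2 lower (Ccnb1 0.574 and Cenpf 0.657), where 8.55% were. Their Mki67 was 54.0, 61.9 and 27.8 CPM with IL-27 and 70.2 and 31.7 with PBS, which overlapped, and 0 members had wells apart (at 1.5-fold, 1.92% of genes higher and 4.23% lower). Without PBS well 1 the counts were 24 higher and 0 lower. The lower count was 8, 4 and 0 without IL-27 wells 1, 2 and 3, and 7 without PBS well 2. B cells had 1 of 34 members higher (Ccnb2 1.68), where 2.46% of genes were, and 5 lower, where 4.87% were: Ccnb1 (0.363), Ube2c (0.288), Nusap1, Cenpf and Plk1. B cell Ube2c was 0.743, 0.281 and 1.90 CPM with IL-27 and 7.29 and 0.412 with PBS, so PBS well 1 set its ratio, and without that well 6 members were higher and 2 lower. Without IL-27 well 3 the counts were 0 and 8, and without IL-27 well 2, 2 were higher. At 1.5-fold Ccnb1 was the 1 member of the B gate with wells apart, at 0.425, 0.468 and 0.732 CPM with IL-27 and 1.71 and 1.40 with PBS, where 1.92% of genes were lower in this way and 1.13% higher. Under 1.5-fold the wells were also apart for Mcm3 and Gins2, higher, and for Aurkb and H2afx, lower.

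NK cells had 10 of 24 members higher, where 8.97% of genes were, and 2 lower, where 11.6% were. Of the 24, 12 had under 20 UMIs in the PBS library, so these counts are a description. Their summed mitotic level was 282, 703 and 66.5 CPM with IL-27 and 139 and 132.5 with PBS, which overlapped. Summed broad genes were 3881, 3947 and 3644 CPM against 3386 and 2265, a ratio of 1.51. Without IL-27 well 2 the counts were 4 higher and 4 lower, and without IL-27 well 1 or either PBS well 1 was lower. Among members at 1.5-fold with 20 UMIs, wells did not overlap for Ccna2, Mcm6, Hmgb2 and H2afz, higher (3.92% of genes), and for Rrm2 and Mcm7, lower (5.56%). H2afz stood at 2692, 2395 and 2394 CPM with IL-27 and 2202 and 1354 with PBS. Summed mast cell markers were 864 CPM in the NK gate of PBS well 2, and their part was not tested.

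No member passed edgeR over wells in the other 5 gates: 0 of 10 tested in NK, where 0.313% of 4159 genes passed, 0 of 34 in CD4, 0 of 32 in CD8 and 0 of 35 in other T, where 0% passed, and 0 of 32 in B cells, where 0.00892% of 11215 did. At an unadjusted p under 0.05 there were 5 members in NK, where 7.60% of genes had one, 3 in CD8 (7.03%), 3 in B (4.82%), and 0 in CD4 (4.95%) and other T (5.76%). These counts are a description. DESeq2 also called 0 members in these 5 gates, where it called 0% of genes in NK, 0.0812% in CD4, 0.0214% in CD8, 0.133% in other T and 0.0178% in B cells. Without PBS well 1, edgeR called 14 of 34 members in CD4, where 5.91% of genes were called, 7 of 33 in CD8 (29.6%), 7 of 35 in other T (9.57%) and 4 of 17 in NK (2.64%), with the lone PBS well assumed to vary like the IL-27 wells, and without IL-27 well 3 it called 1 in NK. A p above the threshold does not show that the treatments were alike.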

How the data were processed

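Whole-number UMI counts per gene and barcode were deposited by the authors as 1 matrix per treatment. Cell Ranger 3.0.0 and mm10 are named in the submitters' processing notes, and how wells were merged is not given in the sources used here. The members and gene lists were chosen with earlier results of these data known. No column of per-sample values was unused (0).

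UMIs were summed per gate and library or well and scaled to CPM with Python 3.11.15, numpy 2.4.6 and scipy 1.17.1. Poisson, binomial and conditional intervals are exact. The intervals cover counting error only. With 1 library per treatment there is no test between libraries. Wells (3 against 2) were compared with edgeR 4.0.16 (quasi-likelihood, TMM, filterByExpr, Benjamini-Hochberg at 0.05 over all genes of a gate) and DESeq2 1.42.0 in R 4.3.3. No label says that wells are separate mice, so p-values measure the spread between wells. Between the PBS wells this spread includes sex and mouse, since PBS well 1 held 0 Y-linked UMIs and PBS well 2 held 3074. Among the IL-27 wells it may be technical.

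Members with at least 20 UMIs in a gate were counted as higher or lower at 1.5-fold. All members could be named, with the 6 widest and 6 narrowest ratios among the 55 related genes and the genes of nearest profile (at least 50 CPM in a gate, pseudocount 1 CPM, gates of at least 20 cells per well). On simulated counts edgeR recovered 63% of 2-fold and 99% of 4-fold changes in Treg (5247 genes, 11 false) and 71% and 99% in CD4 (9858 genes, 4 false). The simulation gave all genes 1 fixed spread between wells and changed only genes with a mean of at least 20 counts per well. Mitotic UMIs of Treg lay in few cells, and Ube2c had 1 UMI in each PBS well. The simulated rates therefore cannot be carried over to such genes. Cells with both T and B markers were left out, and Scrublet (scanpy 1.11.5) scores were used as an alternative. Other alternatives were another scaling, other UMI minimums, thinning depths and class cuts, a stricter lineage gate, Cd8a alone, and leaving out each well. Some marker genes of the B and germinal centre B gates are not reported here.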

Additional observations from a re-analysis of the deposited data

Results flagged for a closer look

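Cells outside the gates also held the mitotic class. Of 3355 kept cells in no gate, 57 (1.70%) had UMIs of at least 3 of the 17 mitotic genes, while 0 of 89 neutrophils did. Of these 57, 51 were among 2485 cells with both T and B markers (2.05%), and 4 of the 51 had a Scrublet score over 0.25.

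The summed S phase level moved in opposite directions in a pair of gates. In germinal centre B cells all IL-27 wells exceeded both PBS wells, with a ratio of 4.75, and in CD8 cells all IL-27 wells were under both PBS wells, with a ratio of 0.816. In germinal centre B cells 0 of the 12 S phase genes had 20 UMIs in the PBS library by itself. That side is a description and supports nothing. The median log2 ratio of all genes in the CD8 gate was -0.15. The difference between the gates was not tested.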

How the results depend on the processing

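Outside leaving out wells, 152 values on the comparisons were within their limits of the reported ones (for a share ratio the spread of wells, which is wide) and 19 moved, the cause of which was not tested except where fewer or more genes were tested. With TMM scaling, 0 members were lower in Treg and 1 in other T. With at least 50 UMIs, 10 were higher in Treg, 2 lower in B, and 3 higher and 1 lower in NK. With no UMI minimum, 2 were higher in B and 18 in NK, and edgeR without its filter called 7 of 35 members in Treg (0.658% of all genes), 7 of 35 in germinal centre B (0.77%) and 4 of 34 in NK (0.753%). With no UMI of another lineage allowed, 8 were lower in CD4 and 4 in other T, and Hmgb2 in Treg turned to 0.975. With Cd8a alone, chosen after the data were seen, Treg had 11 higher and 0 lower, CD8 0 and 14, and other T 2 and 0, and the summed mitotic ratio of other T turned to 1.16.

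Share ratios within that spread still turned direction or moved by over 1.5 times: CD8 to 1.42, other T to 0.529 and NK to 1.40 with at least 5 of 17 genes, B to 1.59 and NK to 1.42 at full depth, NK to 1.33 at 2000 UMIs and to 1.51 with no UMI of another lineage, B to 1.38 with at most 5% mitochondrial UMIs, other T to 1.21 with Cd8a alone, and germinal centre B to 8.16 with a gate of 1 UMI.

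Leaving out each well gave these ranges of higher members: 0 to 21 in CD4, 13 to 22 in Treg, 1 to 4 in CD8, 0 to 24 in other T, 0 to 6 in B, 17 to 35 in germinal centre B and 4 to 12 in NK. Lower members ranged over 0 to 9, 0 to 4, 2 to 16, 0 to 8, 2 to 8, 0 to 4 and 1 to 4 in the same order, and edgeR calls over 0 to 14, 0 to 2, 0 to 7, 0 to 7, 0 to 0, 0 to 0 and 0 to 4. Thinned share ratios ranged from 0.497 to 0.764 in CD4, 0.595 to 0.938 in CD8, 0.646 to 2.14 in other T, 0.385 to 1.36 in B, 1.33 to 3.28 in germinal centre B and 1.95 to 3.64 in NK, over the cases with a value. The ratio has none, since PBS was left with 0 class cells, in CD4 and germinal centre B without PBS well 1 and in NK without PBS well 2, so those upper ends have no bound and CD4 turned direction. Summed mitotic ratios ranged from 0.706 to 3.17 in CD4, 0.499 to 1.19 in CD8, 0.697 to 2.11 in other T, 0.775 to 1.11 in B and 0.938 to 27.1 in germinal centre B, and those turning direction were the upper values without PBS well 1 in CD4, other T and B, without PBS well 2 in CD8, and without IL-27 well 3 in other T (1.01), and the lower value without PBS well 2 in germinal centre B. Ratios turned under 1 for Hmgb2 in Treg (0.888 to 1.47) without IL-27 well 1, and for Ccna2 (0.962 to 2.23) and H2afx (0.844 to 19.1) in germinal centre B without PBS well 2.

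A lone PBS well is assumed to vary like the others. With the main gates and class cut, the Treg share ratio has no value at 1000 UMIs, since PBS held 0 class cells. It was 3.86 with at least 2 of 17 genes, 1.29 at 2000 UMIs and 1.93 with Cd8a alone. No paired analysis was possible because each treatment is 1 library and well numbers link no mice. Depth limits Treg and germinal centre B most, with 108 and 21 PBS cells.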

Other observations

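The 39 class cells of the B gate outside germinal centre B carried plasma cell genes. Jchain, the joining chain of secreted antibody, stood at 8705 CPM in them against 413 in the other B cells, Xbp1, a secretory regulator, at 625 against 97.6, Tnfrsf17 (BCMA) at 92.3 against 0.866 and Sdc1 (CD138) at 48.4 against 4.99. UMIs of at least 3 of 5 plasma cell markers were held by 8 of the 39 (20.5%) and by 25 of 18580 other B cells (0.135%). The class cells had a median of 10205 UMIs and the B gate 2795, and the part of depth in these shares was not tested. Of those 8 cells, 6 came from IL-27 well 3. A marker of the germinal centre B gate was seen in 3 of the 39 cells (7.69%), against 2.67% of the others. The gates limit both shares, since B cells with at least 2 UMIs of those markers were placed in germinal centre B. Of germinal centre markers outside the gate's list, Bcl6 and Gcsam had 0 UMIs in the 39 cells. Fas, another such marker, stood at 39.2 CPM in the 39 cells against 6.15 in the other B cells. These are the same cells that the class was drawn from and no test was made.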
